A study of Homo sapiens with 16 samples.

Results

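Very long genes are protein-coding genes whose annotated span, from the first to the last base of the gene, is at least 500 kb, most of it intron. In the deposited table, 313 of 58735 genes met that length with the protein-coding biotype, after 4 genes set aside by the selection rule, and the other 19634 protein-coding genes were shorter. The rule uses span and biotype, not a measured level. The shortest member was AFF2 at 500045 bases, and the longest gene outside the set was DIAPH3 at 498405 bases. The longest member was RBFOX1 at 2473537 bases, and 68 members spanned at least 1 Mb. The median span was 726 kb, against 26.4 kb for the shorter protein-coding genes, while the median exonic length was 10005 against 4164 bases. Exons therefore made up a median of 1.21% of a very long gene and 16.1% of a shorter one, and 268 members had an intron of more than 100 kb in their reference transcript, the basic transcript with the longest coding sequence.

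The cells were IMR32, an established human neuroblastoma line labelled wild type, and all 4 groups were treated for 24 hours before RNA extraction. One group received DMSO, the vehicle, and the others received 1.25 µM indisulam, 4 µM alectinib, or both drugs at those doses, here called the combination. Indisulam is an aryl sulfonamide that recruits the splicing factor RBM39 to an E3 ubiquitin ligase for degradation, and alectinib is a tyrosine kinase inhibitor. Each group had 4 poly(A)-selected libraries, and the labels do not say whether they came from separate cultures, so p-values measure the spread between libraries, which may be technical. Library totals ran from 55080768 to 63740239 counts, apart from alectinib replicate 1 with 90237379. A lower value can come from fewer cells that hold the RNA or from less RNA per cell, and these cannot be told apart.

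An RNA polymerase must travel the whole span of a transcript before one full copy is made. A transcript that covers a very long gene thus takes far longer to make than a short one. It depends on sustained elongation, on polymerase kinases such as CDK12, on topoisomerases that relieve torsion, and on correct splicing over large introns. The annotated span joins all transcripts of a gene. A protein-coding transcript under 100 kb was annotated in 180 members, and in 34 every protein-coding transcript spanned less than 500 kb. Counts per gene do not separate these transcripts. Very long genes are common among genes for neuronal adhesion, axon guidance and synapses, and several lie at common fragile sites, regions prone to breakage when replication is disturbed. Elongation and splicing inhibitors are known to reduce full-length transcripts of long genes before those of short ones.

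To show what splicing has to join in these genes, the mRNA is printed across the longest intron that lies between coding exons in 7 members whose levels are described further on. Each line holds the last 24 bases of the exon before the intron in lower case and the first 24 bases of the exon after it in capitals, 5′ to 3′, from GENCODE 29 transcripts on GRCh38.
ROBO2: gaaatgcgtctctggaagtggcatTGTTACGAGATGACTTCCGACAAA
SEMA5A: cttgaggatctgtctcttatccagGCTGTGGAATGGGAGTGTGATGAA
ANK2: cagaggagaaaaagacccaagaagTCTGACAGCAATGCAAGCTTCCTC
TENM4: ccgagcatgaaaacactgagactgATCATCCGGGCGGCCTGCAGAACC
CDH4: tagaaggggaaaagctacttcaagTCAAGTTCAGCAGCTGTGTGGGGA
MACROD2: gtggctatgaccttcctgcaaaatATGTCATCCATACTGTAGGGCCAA
EXOC4: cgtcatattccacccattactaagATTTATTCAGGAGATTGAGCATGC
The change from lower to upper case in ROBO2 stands for chr3:77098341-77477413 on the + strand, 379 kb between exons 2 and 3. In SEMA5A it stands for chr5:9237891-9318371 on the - strand, 80.5 kb between exons 5 and 6, and in ANK2 for chr4:113049813-113174415 on the + strand, 125 kb between exons 1 and 2. In TENM4 it is chr11:78903524-79064737 on the - strand, 161 kb between exons 6 and 7, and in CDH4 chr20:61254938-61743562 on the + strand, 489 kb between exons 2 and 3. In the last 2 genes, which were higher in the combination, it is chr20:14684960-15229939 on the + strand, 545 kb between exons 5 and 6, for MACROD2, and chr7:133630142-133817324 on the + strand, 187 kb between exons 10 and 11, for EXOC4.

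Promoters are shown for 3 members that were lower in the combination, chosen because RefSeq and GENCODE place their start at the same base. The lines give the 200 bases before the start, 5′ to 3′ on the gene's strand, from RefSeq on GRCh38.p14, with matches to the GC box GGGCGG on either strand in capitals.
THSD7B: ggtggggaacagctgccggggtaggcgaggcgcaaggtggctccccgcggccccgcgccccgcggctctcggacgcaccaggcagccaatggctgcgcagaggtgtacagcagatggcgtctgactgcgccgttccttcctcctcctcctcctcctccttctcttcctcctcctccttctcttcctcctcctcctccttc
ATRNL1: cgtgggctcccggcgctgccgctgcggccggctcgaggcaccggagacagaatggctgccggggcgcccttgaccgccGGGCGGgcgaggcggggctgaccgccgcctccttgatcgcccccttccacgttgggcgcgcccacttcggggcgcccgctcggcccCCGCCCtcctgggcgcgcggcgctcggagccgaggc
LRBA: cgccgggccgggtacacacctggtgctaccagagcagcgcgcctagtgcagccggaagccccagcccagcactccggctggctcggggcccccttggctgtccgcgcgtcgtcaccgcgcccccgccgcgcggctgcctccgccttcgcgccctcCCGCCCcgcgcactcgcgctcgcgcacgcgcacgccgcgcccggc
They lie at chr2:136765345-136765544, + strand (THSD7B), chr10:115093165-115093364, + strand (ATRNL1) and chr4:151015728-151015927, - strand (LRBA). The windows held 0, 2 and 1 GC boxes, and none held TATAAA on either strand. Over the 258 members with a promoter in the RefSeq table, the median GC content of this window was 63.8%, against 64.0% for 14641 shorter protein-coding genes. A GC box was present in 44.2% of members and 54.6% of shorter genes, and TATAAA in 5.8% and 7.4%. Among members, the GC box share was 52.5% of 118 that were lower in the combination and 45.5% of 33 that were higher. The letters describe the windows only.

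Of the 313 members, 270 had enough counts to be tested, and of the 43 that did not, 11 had no count in any library and none of the rest exceeded 104 counts over all 16 libraries. Levels are given as counts-per-million values after TMM scaling (CPM), or, where genes are compared with each other, per exonic length as transcripts-per-million values (TPM). In DMSO, 32 members averaged at least 100 CPM, 142 at least 10 CPM and 91 under 1 CPM. By TPM the order began with SPOCK1, a secreted testican proteoglycan, at 314 ± 27.9 (SD, n = 4), PRKCA, protein kinase C alpha, at 196 ± 2.95, ADGRL2, a latrophilin adhesion receptor, at 128 ± 4.99, and SYT1, the calcium sensor of synaptic vesicle release, at 120.1 ± 5.25. The means of ADGRL2 and SYT1 differed by less than the sum of their SDs. NELL1, a secreted signalling protein, followed at 95 ± 5.55, then SORCS1, a sorting receptor, at 91.3 ± 1.53 and KIF26B, a kinesin family member, at 86.4 ± 1.57. KCNQ5, a potassium channel subunit, at 75.3 ± 4.12, ANK2, the membrane adaptor ankyrin-B, at 74.2 ± 2.53, and SLIT3, a guidance ligand, at 73.5 ± 3.01 closed the 10 highest and lay within their spread of each other. The 10 highest members by CPM carried 30.8% of all counts of the set in DMSO.

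The members' summed level was lower in both groups that received alectinib and lowest in the combination. Their sum was 10851, 11255, 11544 and 10834 CPM in the DMSO libraries, 11603, 10708, 10623 and 10711 with indisulam, 9373, 9297, 9792 and 9698 with alectinib and 8409, 8276, 8418 and 8072 with the combination. Every combination library lay below every alectinib library, and every alectinib library below every DMSO and indisulam library, whereas DMSO and indisulam overlapped. The group means were 11121 ± 343, 10911 ± 463, 9540 ± 242 and 8294 ± 162 CPM (SD, n = 4). The median member, taken library by library against the DMSO mean, lay between -0.30 and -0.26 on the log2 scale in the combination, between -0.17 and -0.07 with alectinib, and between -0.06 and 0.03 with indisulam, while the median of all tested genes stayed between -0.02 and 0.01 in all 16 libraries.

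**Figure D1:**
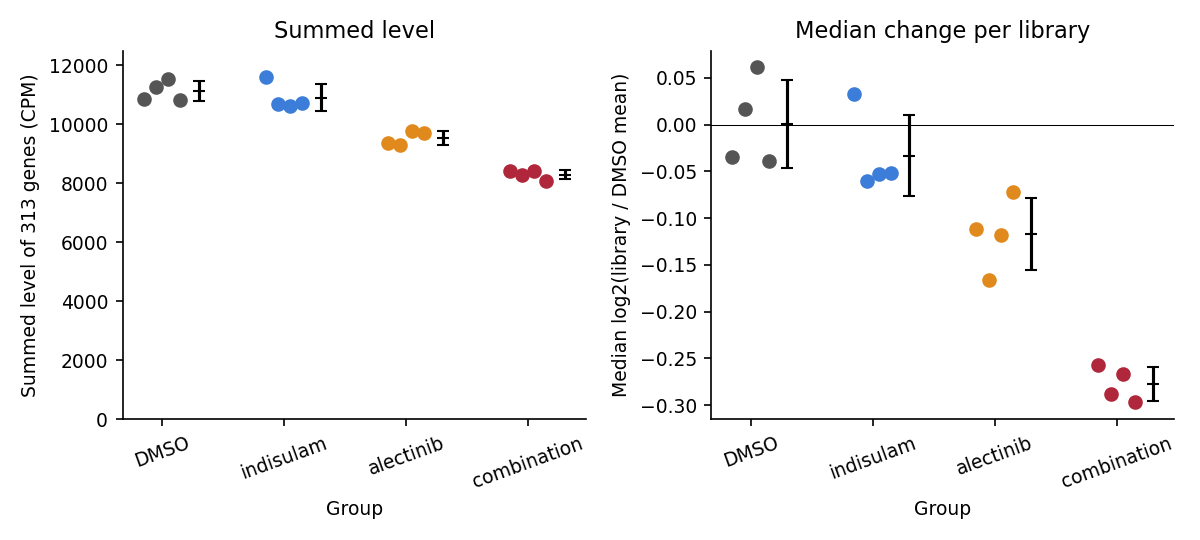
Left, summed level of the 313 very long genes in CPM, and right, the median over members of log2(library / DMSO mean), for each of 16 libraries (points) with the group mean and SD (bars, n = 4). The combination libraries lie between 8072 and 8419 CPM, below all others.

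Most tested members that changed in the combination were lower than with DMSO. Of 270, 140 were lower and 39 higher at an adjusted p under 0.05 (edgeR's quasi-likelihood test, Benjamini-Hochberg over 22433 genes). Among all 22433 genes tested, 30.6% were lower and 29.7% higher, so the members' share of lower genes, 51.9%, stood above that background and their share of higher genes, 14.4%, below it. At 2-fold or more, 43 members were lower and 10 higher, against backgrounds of 11.2% and 11.7%. The members' median log2 fold change was -0.35, with quartiles of -0.83 and 0.07, and that of all genes was 0.01. With upper-quartile scaling, which raised the median of all genes to 0.13, the counts were 117 lower and 57 higher, and the members' median minus that of all genes was -0.36, as with TMM scaling.

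The decrease in the combination was graded over the whole range of gene lengths and did not begin at 500 kb. The median log2 fold change of protein-coding genes was 0.03 under 20 kb, -0.04 from 20 to 50 kb, -0.13 from 50 to 100 kb, -0.23 from 100 to 200 kb and -0.32 from 200 to 500 kb, next to -0.35 for the members. The share called lower rose from 32.4% under 20 kb to 52.8% from 200 to 500 kb, and was 51.9% in the members, which thus lay level with the class below them. Neither drug alone gave such a gradient over the shorter classes, whose medians ran from -0.09 to -0.02 with indisulam and from -0.06 to -0.03 with alectinib. The members stood at -0.03 with indisulam, within that range, and at -0.13 with alectinib, below every shorter class. Across 14728 protein-coding genes, the Spearman correlation of span with the log2 fold change was -0.14 in the combination, -0.04 with indisulam and -0.01 with alectinib, as a description over genes that share the same libraries. Among the 270 members alone it was 0.09 in the combination.

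**Figure D2:**
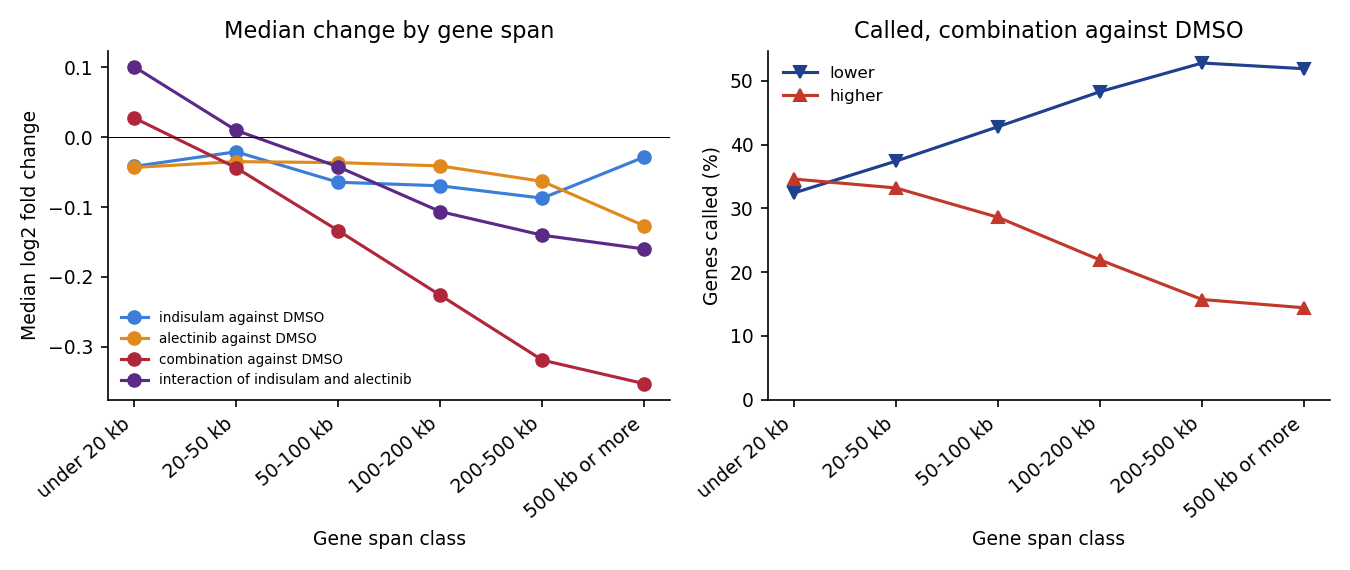
Left, median log2 fold change of tested protein-coding genes by class of gene span for the single drugs, the combination and the interaction term, and right, the percent of genes in each class called lower or higher in the combination. The combination line falls from 0.03 under 20 kb to -0.35 at 500 kb or more, and the share called lower levels off above 200 kb.

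Within the set, greater span did not go with a greater decrease. The 59 tested members of at least 1 Mb had a median of -0.17 in the combination and 39.0% were lower, against -0.39 and 55.5% of the 211 between 500 kb and 1 Mb. The longest intron ran the same way: 29 of 38 members whose longest intron was under 100 kb were lower (median -0.56), and 32 of 72 with one of at least 300 kb (median -0.20). Exon number ran the other way, from 43.4% lower among members with up to 10 exons (median -0.23) to 57.4% among those with over 30 (median -0.52). The share called rose with level, from 19.6% lower under 1 CPM to 71.4% at 100 CPM or more, while the medians of these level classes stayed between -0.41 and -0.33. Members with a short protein-coding transcript, under 100 kb, had 51.2% lower, and those in which every one spanned at least 500 kb had 51.5%. These classes were drawn after the values were seen and are described without a test.

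The genes of axon guidance and neuronal migration were the role list with the lowest median. Of 13 tested, 12 were lower in the combination and none higher, with a median of -1.15. With indisulam alone 7 were lower, and with alectinib alone 8 were lower and 1 higher. For this and the other role lists, the shares over all genes tested were 30.6% lower and 29.7% higher in the combination, 24.8% lower with indisulam, and 12.3% lower and 9.99% higher with alectinib. RELN encodes reelin, a secreted protein that positions migrating neurons. Its level was 18.5, 16.1, 17 and 22.6 CPM with DMSO, 3.95, 4.72, 7.81 and 9.78 with indisulam, 13.4, 8.68, 11.9 and 9.89 with alectinib and 1.93, 2.75, 2.02 and 2.85 with the combination. No combination library reached the lowest value of another group, and both single drugs lay below DMSO. The log2 fold change in the combination was -2.96 (SE 0.22, adjusted p = 6.80e-11), the largest decrease of the set among members with a mean of at least 1 CPM. ROBO2, a receptor for Slit ligands, stood at 39.2, 47.4, 44.4 and 38.9 CPM with DMSO, 26.4, 20.96, 18.7 and 20.3 with indisulam, 38.9, 38.1, 44.5 and 43.04 with alectinib and 12.8, 12.4, 12.4 and 12.4 with the combination. Alectinib alone overlapped DMSO, yet the combination lay below indisulam alone in every library. Its log2 fold changes were -0.98 (SE 0.09, adjusted p = 8.96e-09) with indisulam, -0.05 (SE 0.09, adjusted p = 0.764) with alectinib and -1.76 (SE 0.10, adjusted p = 2.24e-13) with both.

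Among the guidance ligands, SEMA5A, a transmembrane semaphorin, was counted at 224, 239.9, 246 and 225 CPM with DMSO and 81.8, 87.8, 75.8 and 81.3 with the combination, and averaged 152 ± 9.502 with indisulam and 175 ± 15.3 with alectinib (SD, n = 4). Both single-drug groups lay below DMSO and above the combination without overlap. The combined change was -1.52 (SE 0.07, adjusted p = 1.05e-14). SLIT3, a secreted ligand of ROBO receptors, fell from 284 ± 12.4 to 128 ± 4.71 CPM, a log2 change of -1.14 (adjusted p = 1.78e-13). DCC, a receptor for netrin, followed alectinib: its level was 2.93, 3.2, 4.49 and 3.76 CPM with DMSO, 6.11, 3.46, 3.78 and 3.24 with indisulam, 2.04, 1.36, 0.863 and 1.33 with alectinib and 1.39, 1.49, 1.599 and 1.1 with the combination. The alectinib and combination groups overlapped each other and lay below DMSO, and indisulam overlapped DMSO. The log2 changes were -1.34 (adjusted p = 1.78e-04) with alectinib and -1.36 (adjusted p = 2.12e-05) with both. PLXNA4, a semaphorin co-receptor, was also lower with alectinib at -0.85 (adjusted p = 3.50e-04).

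Adhesion genes were lower in part. Of 28 tested genes of synaptic and neuronal cell adhesion, 14 were lower and 3 higher in the combination (median -0.44), and of 10 cadherins and catenins 5 were lower and none higher (median -0.34). TENM4, a teneurin that joins cells across the synapse, was counted at 229, 242, 228 and 256 CPM with DMSO, 150.0, 166, 159 and 186 with indisulam, 128, 145, 144 and 135 with alectinib and 89.2, 97.1, 94.1 and 91.5 with the combination. The combination lay below both drugs and both drugs below DMSO in every library. Its log2 changes were -0.53 (adjusted p = 4.71e-07), -0.79 (adjusted p = 3.27e-08) and -1.36 (SE 0.07, adjusted p = 4.11e-14) in that order. TENM3, another teneurin, changed by -0.88 (adjusted p = 2.22e-10) and ADGRB3, an adhesion G protein-coupled receptor, by -0.81 (adjusted p = 9.16e-11). LSAMP, an immunoglobulin-domain adhesion protein, was at 21.8, 25.2, 24.8 and 23.8 CPM with DMSO and 14.1, 12.9, 13.6 and 13.9 with alectinib, a change of -0.81 (adjusted p = 3.56e-06) without overlap, and at -1.05 in the combination. CADM2, another immunoglobulin-domain adhesion protein, changed by -0.91 (adjusted p = 4.49e-05) with alectinib and -0.99 (adjusted p = 2.83e-06) with indisulam. CDH4, the classical cadherin R-cadherin, fell from 12.5 ± 1.62 to 3.75 ± 0.597 CPM in the combination, a log2 change of -1.73 (SE 0.14, adjusted p = 2.03e-10). FAT3, a giant cadherin, changed by -0.50 (adjusted p = 0.00281), and the protocadherin gene PCDH11X by -2.23 (adjusted p = 5.61e-04) from a level of only 0.456 CPM.

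Of 24 ion channel and neurotransmitter receptor genes, 14 were lower and 2 higher in the combination, with a median of -0.44. DPP6, an auxiliary subunit of Kv4 potassium channels, stood at 40.2, 39.03, 39.5 and 39.5 CPM with DMSO, 19.4, 18.3, 17.4 and 18.7 with indisulam, 41.6, 41.2, 43.05 and 41.5 with alectinib and 19.8, 22.9, 22.3 and 20.9 with the combination. The groups with indisulam lay apart from those without it. The log2 changes were -1.099 (SE 0.07, adjusted p = 5.05e-12) with indisulam and -0.88 (SE 0.07, adjusted p = 5.26e-11) with both drugs, and 0.08 (adjusted p = 0.406) with alectinib. GABRG3, a subunit of GABA-A receptors, changed by -1.85 (adjusted p = 7.90e-08) in the combination, from 2.69 ± 0.278 to 0.744 ± 0.124 CPM. GRIN2B, an NMDA receptor subunit, moved the other way: it was nearly absent with DMSO at 0.139, 0.0539, 0.0534 and 0.0348 CPM and reached 0.614, 1.08, 0.783 and 0.628 in the combination, a log2 change of 3.42 (SE 0.50, adjusted p = 2.57e-06) that rests on few counts. KCNIP4, another Kv4 partner, was higher at 0.76 (adjusted p = 1.32e-04). Among receptor phosphatases, receptor kinases and growth factors, 6 of 11 were lower and 2 higher (median -0.52). PTPRN2, a phosphatase-like protein of dense-core vesicles, fell from 55 ± 1.96 to 21.5 ± 2.19 CPM (-1.35, adjusted p = 9.64e-12), and PTPRG, a receptor phosphatase, changed by -0.86 (adjusted p = 2.03e-10). NRG1, the ligand neuregulin of ERBB receptors, was 0.61 higher on the log2 scale (adjusted p = 8.96e-05).

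In the list of the dystrophin complex, cytoskeleton and matrix, 13 of 26 tested genes were lower and 5 higher (median -0.21). ANK2, ankyrin-B, was counted at 342, 376, 388 and 362 CPM with DMSO, 345, 326, 299 and 342 with indisulam, 256, 252, 275 and 278 with alectinib and 148, 150.2, 144 and 141 with the combination. Indisulam overlapped DMSO and the combination lay far below both single drugs. The log2 change was -1.33 (SE 0.06, adjusted p = 9.01e-15), against -0.16 (adjusted p = 0.0268) and -0.47 (adjusted p = 4.64e-06) for indisulam and alectinib alone. THSD7B, a thrombospondin-repeat protein, was at 56.99, 69.7, 64.9 and 58.4 CPM with DMSO, 41.7, 36.7, 34.95 and 35.2 with indisulam, 34.7, 38.2, 41.7 and 41.3 with alectinib and 15.7, 20.4, 17.2 and 17.6 with the combination. Each drug alone lay below DMSO and the combination below each drug, with a combined change of -1.82 (SE 0.09, adjusted p = 5.27e-14). ADAMTSL1, a matrix protein, changed by -1.14 (adjusted p = 1.14e-11). SPOCK1, the member with the highest TPM, averaged 529 ± 46.4 CPM with DMSO and 327 ± 33.8 with the combination, a change of -0.69 (adjusted p = 9.06e-06). The dystrophin gene DMD, by contrast, was at 3.14 ± 0.418 and 2.79 ± 0.637 CPM and did not pass the test (-0.17, adjusted p = 0.435).

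The list of metabolism, trafficking and fragile-site genes was mixed, with 19 of 43 lower and 9 higher (median -0.21). DPYD, the enzyme that begins pyrimidine breakdown, stood at 10.8, 11.7, 13.03 and 12.3 CPM with DMSO, 4.53, 5.14, 5.91 and 6.81 with indisulam, 7.09, 6.49, 6.25 and 7.07 with alectinib and 3.25, 2.78, 2.83 and 3.596 with the combination. Every treated library lay below DMSO and the combination below both drugs, with a combined change of -1.94 (SE 0.13, adjusted p = 5.77e-12). LRBA, a BEACH-domain protein of vesicle traffic, went from 304 ± 18.4 to 156 ± 8.71 CPM (-0.96, adjusted p = 2.29e-12), and ATRNL1, an attractin-like membrane protein, changed by -1.53 (adjusted p = 1.19e-12). SORCS2, a neurotrophin co-receptor of the sortilin family, was lower with indisulam and with the combination by nearly the same amount, -1.52 (adjusted p = 1.21e-06) and -1.58 (adjusted p = 3.34e-07). ATP8A2, a phospholipid flippase, changed by -1.51 (adjusted p = 4.69e-10). The fragile-site genes differed from each other: FHIT, a dinucleoside triphosphate hydrolase, was at 1.23 ± 0.162 and 1.46 ± 0.285 CPM (0.24, adjusted p = 0.314), WWOX, an oxidoreductase, at 7.23 ± 0.463 and 6.49 ± 0.706 (-0.16, adjusted p = 0.277), and IMMP2L, a mitochondrial inner membrane peptidase subunit, fell to 2.39 ± 0.2599 from 5.704 ± 0.468 (-1.25, adjusted p = 5.34e-08). These 3 were chosen after their values were seen, as long fragile-site genes outside the naming rule.

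Of 22 transcription factor and chromatin genes, 15 were lower and 2 higher in the combination (median -0.52). SMYD3, a lysine methyltransferase, averaged 36.6 ± 1.81 CPM with DMSO, 29.9 ± 3.27 with indisulam, 21.6 ± 2.16 with alectinib and 17.9 ± 0.638 with the combination (SD, n = 4), a combined change of -1.03 (SE 0.08, adjusted p = 2.39e-10). HIVEP3, a zinc finger protein, changed by -0.96 (adjusted p = 4.48e-10). ZBTB20, a zinc finger repressor, was higher in every treatment, from 7.87 ± 0.823 CPM with DMSO to 15.9 ± 1.605 in the combination (1.01, SE 0.10, adjusted p = 1.22e-08). In the list of synaptic scaffolds and vesicle release, 6 of 15 were lower and 3 higher (median -0.03). GPHN, gephyrin, the scaffold of inhibitory synapses, was at 51.4, 54.96, 56.8 and 53.2 CPM with DMSO and 24.3, 24.98, 24.5 and 24.9 with the combination, a change of -1.13 (SE 0.07, adjusted p = 1.00e-12), and lay below both single drugs without overlap. STXBP5L, a tomosyn that holds back vesicle fusion, changed by -0.88 (adjusted p = 5.02e-09), and SYT1 was at -0.03 in the combination (adjusted p = 0.714) after 0.43 (adjusted p = 6.02e-06) with indisulam and -0.34 (adjusted p = 3.71e-04) with alectinib.

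The list of intracellular signalling enzymes was the most even, with 9 of 23 lower, 8 higher and a median of 0.05. KALRN, a guanine nucleotide exchange factor, fell from 40.6 ± 1.65 to 21.7 ± 2.06 CPM (-0.90, adjusted p = 1.86e-10), and PRKCA from 591 ± 15.3 to 388 ± 17 (-0.61, adjusted p = 1.90e-10). RGS7, a brake on G protein signalling, changed by -1.54 (adjusted p = 3.61e-09), PDE4D, a cAMP phosphodiesterase, by 0.73 (adjusted p = 5.93e-04) and ELMO1, a partner of Rac activators, by 0.72 (adjusted p = 2.33e-06). Of the 3 RNA-binding protein genes tested, CELF2 was lower at -0.38 (adjusted p = 0.00106), while RBFOX1 and RBMS3 were at -0.06 (adjusted p = 0.644) and 0.07 (adjusted p = 0.415). Another 52 tested members were in none of the 11 role lists, and 26 of them were lower and 5 higher, TRHDE, an enzyme that cleaves thyrotropin-releasing hormone, among the former at -2.11 (adjusted p = 4.71e-07).

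**Figure D3:**
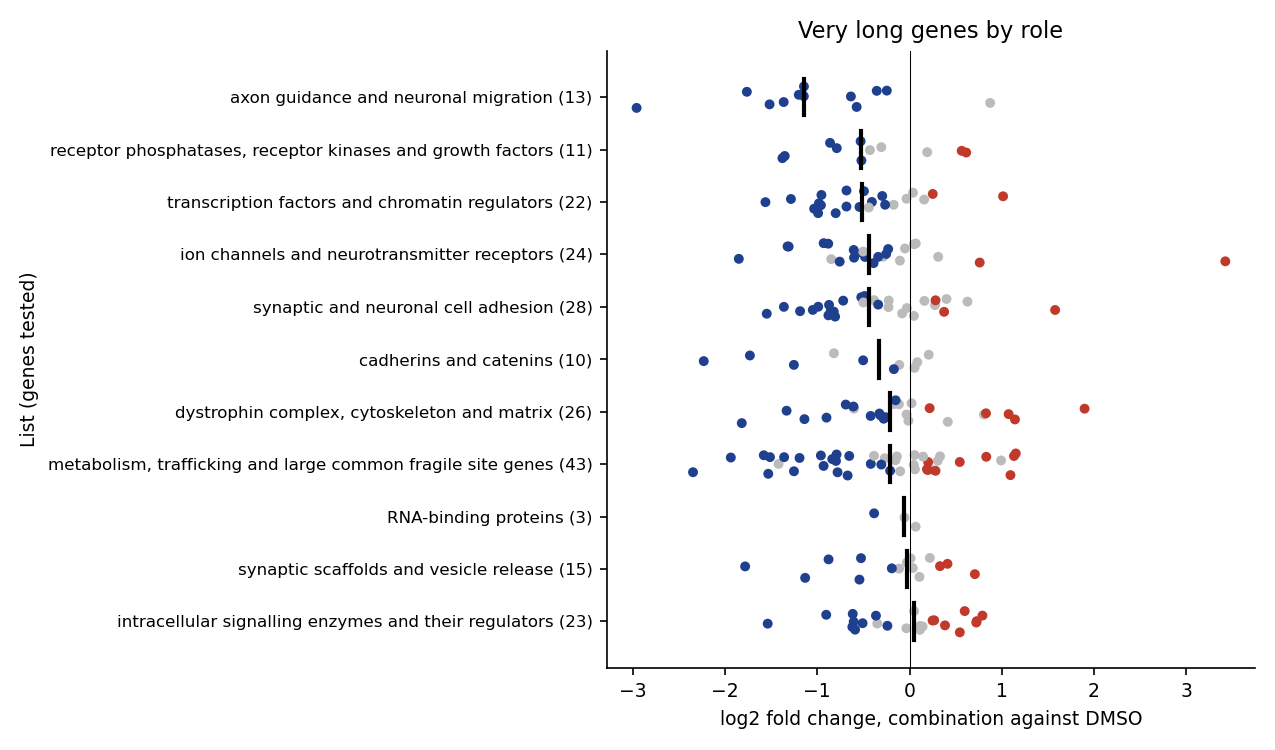
Log2 fold change in the combination against DMSO for each tested member, by role list (number tested in brackets), with called decreases in blue, called increases in red, genes that did not pass the test in grey and the list median as a black bar. The axon guidance list has the lowest median, -1.15, and the signalling list the highest, 0.05.

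The 39 members that were higher in the combination included several that rose with indisulam alone. EXOC4, a subunit of the exocyst that tethers secretory vesicles, was counted at 96.8, 104, 104 and 100.2 CPM with DMSO, 172, 166, 154 and 168 with indisulam, 92.2, 96.5, 99.7 and 101 with alectinib and 149, 164, 176 and 173 with the combination. Both groups with indisulam lay above both groups without it, and they overlapped each other. The log2 changes were 0.70 (SE 0.06, adjusted p = 1.74e-09) with indisulam and 0.71 (SE 0.06, adjusted p = 5.39e-10) with both, and the interaction was 0.07 (adjusted p = 0.68). STK3, the Hippo pathway kinase MST2, was also higher in both groups with indisulam, with 7.09 ± 0.316 CPM with DMSO, 12.1 ± 0.478 with indisulam, 6.58 ± 0.756 with alectinib and 14.2 ± 1.63 with both (1.003, SE 0.10, adjusted p = 7.12e-09). MACROD2, a hydrolase of ADP-ribosylated proteins and a member of more than 2 Mb, stood at 6.45, 6.85, 6.32 and 4.79 CPM with DMSO, 8.68, 8.15, 9.04 and 7.46 with indisulam, 8.53, 6.64, 8.33 and 8.17 with alectinib and 14.4, 12.3, 15.02 and 11.7 with the combination. Every combination library lay above every other library, and the change was 1.13 (SE 0.12, adjusted p = 1.97e-08). FAM19A2, a chemokine-like secreted protein, rose from 5.13 ± 0.436 to 10.96 ± 0.681 CPM (1.09, adjusted p = 1.07e-08). AGBL1, a tubulin deglutamylase, SPAG16, an axoneme protein, and MAST4, a microtubule-associated kinase, changed by 1.07 (adjusted p = 3.38e-05), 0.83 (adjusted p = 5.75e-09) and 0.73 (adjusted p = 4.50e-05).

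**Figure D4:**
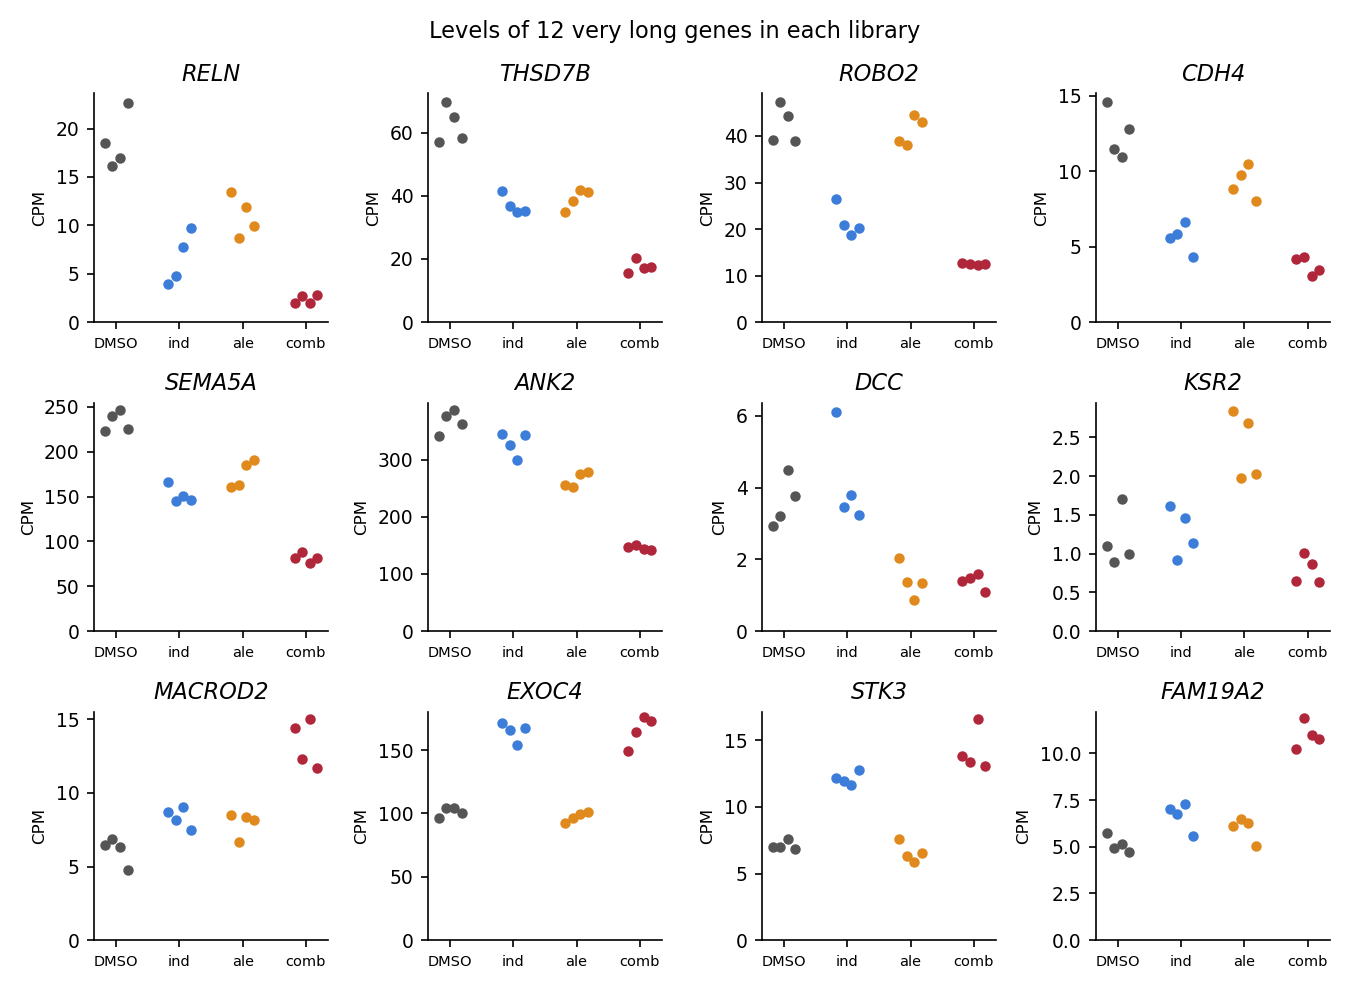
Level in CPM of 12 very long genes in each of the 16 libraries (one point each) with DMSO, indisulam (ind), alectinib (ale) and the combination (comb), each vertical axis starting at 0. RELN, THSD7B, ROBO2, CDH4, SEMA5A and ANK2 are lowest in the combination, DCC is low wherever alectinib was given, and EXOC4 and STK3 are high wherever indisulam was given.

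With indisulam alone the members stayed near the background. 73 were lower and 49 higher, which is 27.0% and 18.1% of those tested, against 24.8% and 23.0% of all genes. Their median was -0.03, and with upper-quartile scaling it was 0.05 with 60 lower and 67 higher. Among members with a mean of at least 1 CPM, the largest decreases after SORCS2 and RELN were in MTUS2, a microtubule-associated protein (-1.46, adjusted p = 2.66e-05), RGS7 (-1.29, adjusted p = 1.11e-07), ADARB2, a catalytically silent relative of the ADAR editing enzymes (-1.24, adjusted p = 4.83e-07), CDH4 (-1.15, adjusted p = 2.32e-07), DPP6 and DPYD (-1.09, adjusted p = 1.11e-07). With the same limit on level, the largest increases were in AGBL1 (1.16, adjusted p = 2.15e-05), GRM5, a metabotropic glutamate receptor (0.87, adjusted p = 0.00357), STK3 (0.77, adjusted p = 9.55e-07), NRG1 (0.73, adjusted p = 1.86e-05), EXOC4, ZBTB20 (0.69, adjusted p = 8.43e-06), ELMO1 (0.66, adjusted p = 1.52e-05) and PARD3B, a cell polarity protein (0.61, adjusted p = 0.00259).

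With alectinib alone, more members were lower than higher. 69 were lower and 16 higher, or 25.6% and 5.9%, against 12.3% and 9.99% of all genes and 17.9% and 9.4% of protein-coding genes, and the median was -0.13. With upper-quartile scaling 53 were lower and 24 higher. Among members with a mean of at least 1 CPM, the decreases after DCC were, in order of size, in TRHDE (-0.98, adjusted p = 0.00649), CADM2, GABRG3 (-0.88, adjusted p = 0.0027), PLXNA4, DPYD (-0.83, adjusted p = 3.17e-05), LSAMP and TENM4. At that level the increases were led by KSR2, a scaffold of the RAF and MEK kinases (1.02, adjusted p = 0.00229), AGBL1 (0.72, adjusted p = 0.00811), PARD3B (0.68, adjusted p = 0.00284) and the teneurin TENM1 (0.65, adjusted p = 2.48e-04). LRP1B, an LDL receptor relative, PTPRM, a receptor phosphatase, and the synaptic scaffolds DLGAP1 and MAGI2 followed at 0.57 (adjusted p = 0.0312), 0.50 (adjusted p = 0.00514), 0.48 (adjusted p = 0.0213) and 0.48 (adjusted p = 8.71e-04). The call of LRP1B was lost in 7 of 25 alternative settings, with an adjusted p of up to 0.169, and that of DLGAP1 without any one of DMSO replicates 2 and 4 and alectinib replicates 3 and 4.

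The combination was lower than each single drug for many members. Against indisulam alone, 129 of 270 were lower and 19 higher (backgrounds 20.1% and 18.9%, member median -0.29). Against alectinib alone 113 of 270 were lower and 43 higher (backgrounds 29.0% and 26.5%, median -0.24). These comparisons share the combination libraries. Across 14728 protein-coding genes, the Spearman correlation of span with the log2 change was -0.19 against indisulam and -0.16 against alectinib. Among the 270 members alone it was 0.07 and 0.06, so the negative relation over all protein-coding genes was not seen within the set. 81 members, or 30%, were lower in the combination than with DMSO and than with each drug, against 12.9% of all genes. That joint share was not computed for protein-coding genes alone or for the shorter classes of span. Of the 140 lower than with DMSO, 29 (20.7%) were also called lower with each drug alone, 35 (25%) with indisulam and not alectinib, 29 (20.7%) with alectinib and not indisulam, and 45 (32.1%) were called with neither, while 2 were higher with a drug. Over all 6870 genes lower in the combination these shares were 19.6%, 44.9%, 10.7% and 23.6%. Among members with a mean of at least 1 CPM, the lowest against indisulam were TRHDE (-1.77, adjusted p = 1.79e-05), DCC (-1.57, adjusted p = 9.95e-06), RELN (-1.46, adjusted p = 1.46e-05) and CDK14, a cyclin-dependent kinase (-1.36, adjusted p = 5.19e-05), and among the highest were LRP1B (0.96, adjusted p = 3.66e-04), FAM19A2 and MACROD2. With the same limit on level, the lowest against alectinib were RELN (-2.204, adjusted p = 1.21e-08), ROBO2 (-1.72, adjusted p = 7.37e-13), KSR2 (-1.596, adjusted p = 4.05e-06) and ATP8A2 (-1.43, adjusted p = 1.90e-09), and the highest STK3 (1.11, adjusted p = 2.03e-09), NRG1 (1.100, adjusted p = 3.85e-08), FAM19A2 and PDE4D (0.79, adjusted p = 2.92e-04).

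The interaction term asks whether both drugs together gave more or less than the sum of their log2 changes. It was called below 0 for 37 members and above 0 for 5 at an adjusted p under 0.05, or 13.7% and 1.9%. The shares called were 6.63% and 6.85% of all genes, and the median term over all tested members was -0.16. The following counts are also of called members. In the class from 200 to 500 kb the shares were 17.0% and 3.4%. Leaving out 1 library gave 22 to 41 members below 0 and 2 to 8 above 0, with 22 and 23 below 0 without alectinib replicates 4 and 3, 2 above 0 without indisulam replicate 3 and 8 without combination replicate 1, and removing a GC trend with a replicate block gave 57 and 14. Along gene length its median fell from 0.10 under 20 kb through -0.04 from 50 to 100 kb to -0.14 from 200 to 500 kb. The clearest case by p was ANK2, at -0.70 (SE 0.08, adjusted p = 9.94e-06), whose combined decrease exceeded the sum of the single ones. ROBO2 followed at -0.74 (SE 0.13, adjusted p = 7.06e-04), and the term of SEMA5A was -0.48 (SE 0.09, adjusted p = 0.00166). The largest negative value was that of KSR2, counted at 1.098, 0.899, 1.71 and 0.992 CPM with DMSO, 1.61, 0.919, 1.45 and 1.14 with indisulam, 2.84, 1.97, 2.69 and 2.03 with alectinib and 0.649, 1.01, 0.866 and 0.628 with the combination. No combination library reached the lowest alectinib library, and the term was -1.73 (SE 0.33, adjusted p = 0.00139). PTPRK, a receptor phosphatase, and CHRM3, a muscarinic acetylcholine receptor, were at -1.03 (adjusted p = 0.00469) and -0.90 (adjusted p = 0.0183), and AGBL1 at -0.81 (adjusted p = 0.0419). Called above 0, among members with a mean of at least 1 CPM, were TMEM117 (0.56, adjusted p = 0.0216), FAM19A2 (0.50, adjusted p = 0.0367), LINGO2, a leucine-rich repeat membrane protein (0.45, adjusted p = 0.0385), and CTNNA2, neuronal alpha-catenin (0.35, adjusted p = 0.0203). The calls of FAM19A2, LINGO2 and AGBL1 stood close to the threshold: each was lost in 12 to 14 of 24 alternative settings, with an adjusted p of up to 0.0849, 0.148 and 0.126. Those of TMEM117, CTNNA2 and CHRM3 were lost without indisulam replicate 3, indisulam replicate 3 and indisulam replicate 1, and that of TMEM117 also without alectinib replicate 3.

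**Figure D5:**
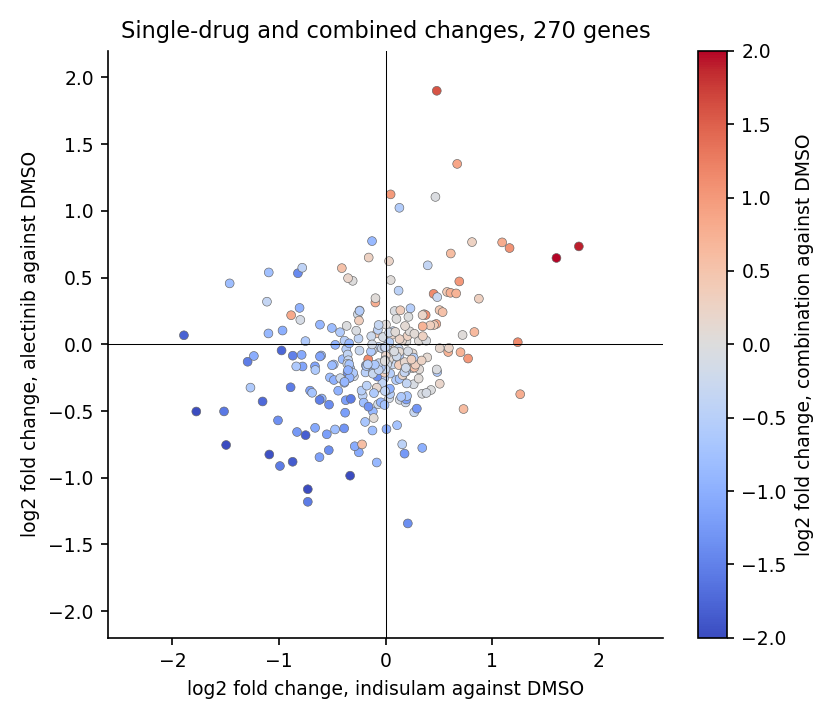
Log2 fold change with indisulam (horizontal) and alectinib (vertical) against DMSO for the 270 tested members, coloured by the log2 fold change in the combination, with colours saturated beyond -2 and 2. RELN lies at -1.50 and -0.75 with a combined change of -2.96, and DCC at 0.21 and -1.34 with a combined change of -1.36. The 3 comparisons share the DMSO libraries.

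The 5 longest members, all over 2 Mb, did not move together. CNTNAP2, a contactin-associated adhesion protein, was at 63.5, 59.96, 67.5 and 54.98 CPM with DMSO and 35.7, 32.8, 34.5 and 31.2 with the combination, a change of -0.87 (SE 0.12, adjusted p = 1.56e-06). PTPRD, a receptor phosphatase of synapse formation, was at 109.5 ± 5.15 and 76.3 ± 4.58 CPM (-0.52, adjusted p = 2.10e-06). RBFOX1, a neuronal splicing regulator, was at 10.3, 12.2, 11.8 and 10.3 CPM with DMSO and 9.71, 11.5, 11.3 and 10.4 with the combination, which overlapped. DLG2, a synaptic scaffold, and DMD did not pass the test in any of the 3 treatments against DMSO, and DLG2 was counted at only 0.654 ± 0.174 CPM with DMSO.

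A list of 47 tested genes of transcript elongation and topoisomerases, which was not chosen by length, gave 14 higher and 10 lower with indisulam, 7 higher and 10 lower with alectinib and 18 higher and 18 lower in the combination, where its median was 0.02. Over all genes tested the shares were 23.0% and 24.8%, 9.99% and 12.3%, and 29.7% and 30.6%, against 29.8% and 21.3%, 14.9% and 21.3%, and 38.3% and 38.3% in the list. TOP2A, the topoisomerase of dividing cells, went from 774 ± 75.1 CPM with DMSO to 313 ± 6.998 with indisulam and 192 ± 16.7 with both (-2.01, adjusted p = 3.87e-16). SUPT6H, an elongation factor that travels with the polymerase, was lower with indisulam at -1.15 (adjusted p = 2.00e-11) and in the combination at -1.39 (adjusted p = 2.69e-13), and CTR9, a subunit of the PAF1 complex, at -0.96 (adjusted p = 2.07e-10) and -0.95 (adjusted p = 7.38e-11). CCNT1, the cyclin of the elongation kinase CDK9, was higher in the combination at 1.22 (adjusted p = 1.59e-14). The RNA of CDK9 itself was lower, at -0.85 (adjusted p = 8.45e-07) with indisulam and -0.95 (adjusted p = 7.71e-08) in the combination. With alectinib the first by p after TOP2A were POLR2A, the largest polymerase subunit (0.31, adjusted p = 7.42e-04), and HEXIM1, an inhibitor of CDK9 (0.37, adjusted p = 0.00142). In the combination POLR2A was lower than with DMSO at -0.38 (adjusted p = 8.95e-06) and HEXIM1 higher at 0.37 (adjusted p = 2.97e-04). Among the list's other topoisomerase genes, TOP1 did not pass the test in the combination (-0.10, adjusted p = 0.206). TOP2B was lower there at -0.61 (adjusted p = 2.48e-08), and the kinase gene CDK12 was higher at 0.36 (adjusted p = 4.75e-06). TOP1, TOP2B, CDK12 and CDK9 were chosen outside the naming rule, after their values were seen. The part of the list's changes in the members' levels was not tested.

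Summed levels of markers of other cell types were at most 0.823 CPM for 7 blood genes, 0.956 for 5 epithelial genes and 2.51 for 4 endothelial genes, while fibroblast and Schwann cell lists were higher. HBB, CD3E and KRT18 had no count in any of the 16 libraries. The 12 adrenergic neuroblastoma markers, all of them tested, summed to between 5092 and 5534 CPM with DMSO and 5020 and 5611 with indisulam. Their sum was between 3839 and 4356 CPM with alectinib and between 2966 and 3490 in the combination. MYCN was the largest part of that sum, at 2443 CPM with DMSO and 1294 in the combination. In the combination 9 of the 12 were lower and none higher, against 30.6% and 29.7% of all genes tested. The 7 fibroblast genes summed to between 33.9 and 37.9 CPM with DMSO and 15.3 and 17.9 in the combination, most of it PDGFRB with 24.5 and 9.13 CPM, and 5 Schwann cell genes to between 3.72 and 6.41 and between 10.2 and 12.3. The adrenergic and fibroblast sums were lower and the Schwann cell sum higher in the combination, beside the lower sum of the members, and their part in the members' change was not tested. Exons of 141 members overlapped those of another gene, among them SEMA5A, SLIT3, DCC, DPYD, LRBA, MACROD2, STK3, KSR2 and AGBL1, and reads of overlapping genes may not be separated in the counts. In the 148 tested members without such overlap, 75 were lower and 21 higher in the combination, with a median of -0.36.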

How the data were processed

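Gene counts of 16 poly(A)-selected IMR32 libraries were analysed, 4 for each of DMSO, indisulam, alectinib and the combination. The authors deposited raw counts per gene with gene positions. The submitters' processing notes name the build GRCh38 and the tools HISAT2 2.2.1, featureCounts 2.0.1, Trimmomatic 0.39 and FastQC 0.11.9, without their settings here, and the strand setting is not given in the sources used here. All 58735 genes had the positions of GENCODE 29, and 27 names stored as dates were restored from it. The members and gene lists were chosen with earlier results of these data known.

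Genes passing filterByExpr by group (22433) were tested with edgeR 4.0.16 in R 4.3.3 (TMM scaling, quasi-likelihood test, 1 mean per group over all 16 libraries, prior count 0.125), with Benjamini-Hochberg adjustment over all genes and a threshold of 0.05. The interaction is the log2 change from indisulam to the combination less the change from DMSO to alectinib. The code was tested on simulated data with 200 changed genes. CPM used TMM-scaled totals, and TPM used exonic lengths. DESeq2 1.42.0, other scalings and filters, a replicate block, removal of a GC trend and each library left out were alternatives. Replicates differed by more than sampling noise. Named genes were the 8 largest increases and decreases of each treatment among called members with a mean of at least 1 CPM and no overlap of groups, 4 for the combination against a single drug, 5 for the interaction, the 10 highest by TPM, the 5 longest, and the first 3 by p of each list. Members lost to the filter (43) were not tested. At these depths 1 CPM stands for about 55 to 90 reads, which limits genes below it. Some members that the rule names are not reported here.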

Additional observations from a re-analysis of the deposited data

Results flagged for a closer look

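In 152 groups of 4 libraries, 7 held a library far from the other 3, about as many as the 1 in 20 that chance gives. In the indisulam group, replicate 1 had a summed member level of 11602.9 CPM against 10623 to 10711 in the others, and a median member change of 0.032 on the log2 scale against -0.060 to -0.052. For single genes, 1 library lay at 12.8 CPM for ROBO2 in the combination (others 12.4), at 277 CPM for SPOCK1 in the combination (others 340.2 to 349), at 7.65 CPM for RBFOX1 with alectinib (others 8.88 to 9.08), at 7.56 CPM for STK3 with DMSO (others 6.87 to 6.99) and at 198 CPM for SORCS1 with alectinib (others 208 to 210.3).

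The change with alectinib differed in the presence and absence of indisulam in 22 members that the report names and in a few other genes. This is by the interaction term of edgeR's quasi-likelihood test at an adjusted p under 0.05. On the log2 scale the difference was below 0 for KSR2 (-1.73), PTPRK (-1.03), CHRM3 (-0.90), AGBL1 (-0.81), ROBO2 (-0.74), ANK2 (-0.70), PARD3B (-0.69), FAT3 (-0.67), SPOCK1 (-0.56), ATP8A2 (-0.56), STXBP5L (-0.54), SEMA5A (-0.48), KALRN (-0.43), GPHN (-0.42), HIVEP3 (-0.41), THSD7B (-0.39), PTPRG (-0.38) and PTPRD (-0.345), and above 0 for TMEM117 (0.56), FAM19A2 (0.50), LINGO2 (0.45) and CTNNA2 (0.35). Outside the members it was -0.71 for POLR2A, -0.47 for MYCN, -0.31 for TOP2A, -0.29 for TOP2B and 0.35 for CCNT1. The calls of MYCN and TOP2B were not followed over the alternative settings. The calls of ATP8A2, THSD7B, PARD3B, TOP2A and PTPRD were lost in 9 to 11 of 24 alternative settings, that of FAT3 without DMSO replicate 2 or alectinib replicate 4, and that of HIVEP3 without alectinib replicate 4 or a filter on low counts.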

How the results depend on the processing

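Of 136 values of named genes, 129 were called, and 109 of these were called under every alternative; over 3371 alternative values, 129 lost and 7 gained a call. No called value changed sign, and 12 values that were not called did, of SYT1 (6), RBFOX1 (4), ADGRL2 (1) and DLG2 (1) in the combination. With upper-quartile scaling the members' medians were 0.054 (indisulam), -0.050 (alectinib), -0.23 (combination) and -0.19 (combination against alectinib), as the median of all genes rose by nearly the same amount. With that scaling 3 members were called above 0 in the interaction. Counts above or below 0 in the interaction are of called members here and in the rest of this section. Restricting to a mean of at least 1 CPM gave medians of -0.29 (combination) and -0.19 (combination against alectinib) and 8 above 0 in the interaction; DESeq2 gave 9. Removing the GC trend gave 26 higher with alectinib, medians of -0.079 (alectinib), -0.29 (combination) and -0.23 (combination against indisulam), and 12 above 0 in the interaction, while the median of all genes in the combination became 0.10. Leaving out each library in turn gave 2 to 8 members above 0 and 22 to 41 below 0 in the interaction, and medians of -0.37 to -0.29 in the combination, the last without DMSO replicate 3. NELL1 and KCNQ5 in the combination were not called with upper-quartile scaling (adjusted p = 0.0736 and 0.108), nor KIF26B without the GC trend (0.0717). Libraries with the same replicate number share only a number in the labels: 5 of 24 correlations of their deviations exceeded 0.1 (-0.06 to 0.17, median 0.05, against -0.01 for other numbers), and, as a hint from the data, 10 of 16 libraries correlated best with their own number. A replicate block gave 139 lower and 38 higher in the combination. The replicate block with the GC trend removed gave 32 higher with alectinib against 70 lower, 29 higher in the combination against indisulam (median -0.23), a combination median of -0.29, and 14 above and 57 below 0 in the interaction. Causes of these shifts were not tested. Members under 1 CPM are limited by depth.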

Other observations

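In 12 members (4.44%, against 1.83% of all genes) the single drugs went in opposite directions, higher with indisulam and lower with alectinib, and in 3 members (1.11%, against 1.88%) the other way round. Of the 12, 4 were among the 10 members with the highest TPM. Members of high level were called more often. At a mean of 100 CPM or more, 32.1% were higher with indisulam and 64.3% lower with alectinib. Under 1 CPM these shares were 10.9% and 0.0%. SORCS1, a sorting receptor of neurons, was at 235, 254, 249 and 248 CPM with DMSO, 295, 307, 302 and 318 with indisulam, 198, 208, 209 and 210.3 with alectinib and 249, 256, 259 and 261 with the combination. The indisulam libraries lay above DMSO and the alectinib libraries below it, and the combination overlapped DMSO. The log2 changes were 0.31 (adjusted p = 1.81e-05) with indisulam, -0.26 (adjusted p = 6.18e-04) with alectinib and 0.05 (adjusted p = 0.363) with both, and the interaction was 0.00 (adjusted p = 0.993). ADGRL2, SYT1 and NELL1 changed by 0.26, 0.43 and 0.19 with indisulam (adjusted p = 5.84e-04, 6.02e-06 and 0.0191) and by -0.30, -0.34 and -0.44 with alectinib (adjusted p = 5.65e-04, 3.71e-04 and 3.44e-05). RBFOX1 and NRG1 showed the same pair of directions, with 0.34 and 0.73 for indisulam and -0.37 and -0.49 for alectinib.

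Another 60 tested members (22.2%, against 28.6% of all genes) were called in none of the 3 treatments against DMSO. AUTS2, a chromatin regulator of neurons spanning over 1 Mb, was lower in the combination alone by these calls, at -0.26 (SE 0.05, adjusted p = 1.52e-04) against -0.01 (adjusted p = 0.947) with indisulam and -0.05 (adjusted p = 0.581) with alectinib, and its interaction did not pass the test (-0.21, adjusted p = 0.0628). SORCS1 was called higher in the combination under 4 of the alternative settings. AUTS2 was chosen after its values were seen.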
